A study of Mus musculus with 9 samples.

Results

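The 28965 windows described here are the pieces of the mouse autosomes that lie nearest to the centromeres and in which the openness of chromatin was measured. A window belonged if it lay on chromosomes 1 to 19, ended at or before 8 Mb from the chromosome's start and was no longer than 8000 bp, which chose them by place and length and by none of the methylation values. They were 28965 of 833294 windows in the whole table, and 28837 of them had a value in all 9 libraries and were used throughout, while the other 128 lacked a value in at least 1 library and entered no median. The windows were compared with 717900 windows from the remainder of the same autosomes and with 33335 windows of the last 5 Mb of each autosome, under the same length limit and with a value in every library.

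Mouse chromosomes carry the centromere at one end, so the chromosome start is the centromeric end and the last bases are the telomeric end. The centromere itself is built of long arrays of minor satellite DNA, which carries the kinetochore, and it is flanked by megabases of major satellite DNA that is packed as constitutive heterochromatin. Most of that sequence is missing from the genome assembly, whose first bases stand for the inner edge of the chromosome arm. The windows therefore run from the edge of the pericentromeric heterochromatin into ordinary gene-bearing sequence, and the first of them started at position 3000011.

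The cells were female mouse embryonic stem cells (mESCs) of an F1 cross between the FVB and CAST strains, a line in which both sets of chromosomes can be told apart by sequence, although the values used here join both alleles. Chromatin was probed by NOMe-seq, in which a methyltransferase marks the cytosine of GpC dinucleotides that nucleosomes leave bare in fixed nuclei and bisulfite sequencing reads the marks, so a higher percent GpC methylation means a more accessible window. There were 9 libraries, 1 for each condition and day. These were undifferentiated cells at day 0, cells at days 4, 5, 6 and 7 of differentiation carrying a non-silencing hairpin (Nons), and cells at the same days carrying hairpin Smarcc1.6 against Smarcc1, a core subunit of the BAF (SWI/SNF) chromatin remodelling complex. All of the day 4 to 7 cells had received a short hairpin RNA by viral transduction at day 2 and puromycin from day 3, and the day 0 cells had received neither. One hairpin stands for the knockdown, and the RNA of Smarcc1 was not measured in these libraries, so its depletion could not be checked from them. With 1 library a group there were no replicates. Tests therefore weighed the 9 libraries, or the 4 days, against each other, and a difference between 2 libraries had no test. The number of reads behind a window was unknown, so no counting interval was given.

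The sequences that carry the main findings came from the GRCm38 assembly (RefSeq), plus strand, in lower case with capitals for each GpC in which the cytosine of at least 1 strand is not followed by G, the sites that the assay can read. The first 3 sequences are from the start of the assembled chromosomes and show 3 kinds of tandem repeat. The array at chr3:3003879-3004178 lies in the least accessible of the windows used and recurs every 21 bases, the array at chr9:3040589-3040888 recurs every 31 bases and lies in a window of the same low kind, and the array at chr9:3003779-3004078 recurs every 234 bases and lies in an accessible window. The other 3 are accessible sequences outside these arrays, and whether each occurs once in the genome was not tested. The Nmt2 stretch is the 300 bases upstream of its start site, at chr2:3283912-3284211. The Peg3 stretch, at chr7:6728663-6728962, is the centre of an intronic window of that imprinted gene. This window was the most accessible without a start site among those with a value in all 9 libraries. The Peg10 stretch, at chr6:4748435-4748734, is the centre of an intronic window of that imprinted gene.
21-base array: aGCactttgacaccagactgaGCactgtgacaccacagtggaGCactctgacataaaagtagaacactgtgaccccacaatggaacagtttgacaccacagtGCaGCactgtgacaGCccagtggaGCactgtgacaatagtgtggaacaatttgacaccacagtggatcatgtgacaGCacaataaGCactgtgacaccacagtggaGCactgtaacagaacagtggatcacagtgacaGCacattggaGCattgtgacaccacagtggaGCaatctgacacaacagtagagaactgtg
31-base array: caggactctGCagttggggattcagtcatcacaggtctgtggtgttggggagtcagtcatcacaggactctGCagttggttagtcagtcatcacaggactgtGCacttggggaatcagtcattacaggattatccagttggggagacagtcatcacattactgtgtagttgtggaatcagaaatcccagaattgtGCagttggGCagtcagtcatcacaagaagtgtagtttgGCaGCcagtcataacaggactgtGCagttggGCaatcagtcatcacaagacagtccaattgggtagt
234-base array: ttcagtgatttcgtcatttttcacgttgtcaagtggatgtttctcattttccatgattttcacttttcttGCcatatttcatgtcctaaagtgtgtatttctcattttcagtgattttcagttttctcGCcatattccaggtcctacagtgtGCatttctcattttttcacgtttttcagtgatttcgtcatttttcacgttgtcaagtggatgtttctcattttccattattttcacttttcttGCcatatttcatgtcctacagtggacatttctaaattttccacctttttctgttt
Nmt2 upstream: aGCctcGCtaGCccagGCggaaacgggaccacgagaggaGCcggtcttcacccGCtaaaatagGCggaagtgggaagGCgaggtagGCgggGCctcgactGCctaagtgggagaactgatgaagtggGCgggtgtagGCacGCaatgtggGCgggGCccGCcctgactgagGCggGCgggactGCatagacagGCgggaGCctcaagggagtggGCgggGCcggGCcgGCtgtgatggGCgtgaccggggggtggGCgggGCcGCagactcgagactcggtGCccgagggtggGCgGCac
Peg3 intron: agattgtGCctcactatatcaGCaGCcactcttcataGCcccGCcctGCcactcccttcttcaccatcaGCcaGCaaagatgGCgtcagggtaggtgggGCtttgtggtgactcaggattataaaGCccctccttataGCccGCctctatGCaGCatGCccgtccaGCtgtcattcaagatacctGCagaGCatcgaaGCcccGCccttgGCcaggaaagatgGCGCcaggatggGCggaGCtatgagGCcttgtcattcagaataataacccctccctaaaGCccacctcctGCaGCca
Peg10 intron: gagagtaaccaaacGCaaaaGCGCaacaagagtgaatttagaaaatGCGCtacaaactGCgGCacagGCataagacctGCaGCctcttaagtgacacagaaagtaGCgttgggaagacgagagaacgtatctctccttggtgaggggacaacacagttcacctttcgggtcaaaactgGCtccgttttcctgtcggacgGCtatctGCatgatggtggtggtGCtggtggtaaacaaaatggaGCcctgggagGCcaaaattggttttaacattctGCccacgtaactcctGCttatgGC

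Of these 300-base stretches the Nmt2 upstream sequence held 33 readable GpC sites and had a GC content of 70%, the Peg3 intron held 30, the Peg10 intron 20, the 21-base array 13, the 31-base array 9 and the 234-base array 4. Base for base, the Nmt2 stretch therefore offered the enzyme many more sites than the stretch of the 234-base array, whose GC content was 34%. The windows that hold these stretches differed in length, at 1824 bp for Nmt2 and 7831 bp for the printed 234-base array. The counts for the stretches therefore do not carry over to whole windows.

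Pooled over the autosomes, the windows next to the centromere had medians that differed from those of the rest by less than 0.3 points in each library. Their median GpC methylation was 11.0% in undifferentiated cells, with quartiles of 7.29% and 15.4%. In Nons cells of days 4 to 7 it was 14.1%, 21.2%, 10.1% and 6.31%, and in knockdown cells it was 11.1%, 20.3%, 11.7% and 6.90% at the same days. Both day 5 libraries were the highest and both day 7 libraries the lowest, which was also so in the remainder of the autosomes, with 11.3% at day 0, 13.95%, 21.2%, 10.3% and 6.42% in Nons cells and 11.1%, 20.2%, 11.9% and 7.14% in knockdown cells. Levels of different libraries were not normalised to each other, so the course over days was a property of each whole library and whether it arose in the cells or in the assay was not tested. Windows read as exactly 0% made up between 0.0277% (Nons day 4) and 6.16% (knockdown day 7) of the windows.

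**Figure D1:**
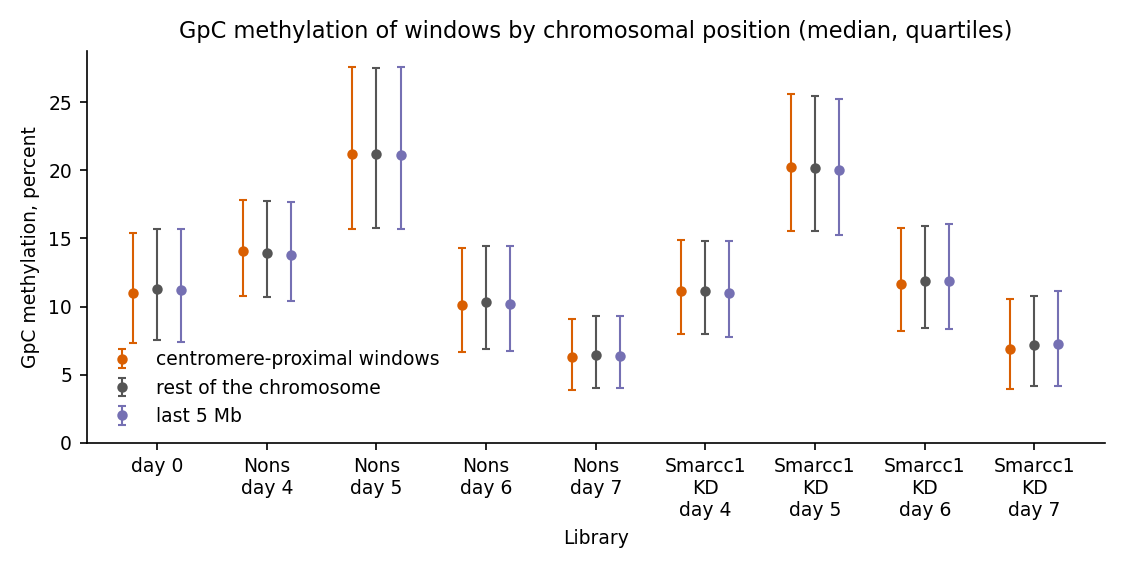
Median GpC methylation in percent on the vertical axis for each of the 9 libraries on the horizontal axis, in centromere-proximal windows, in the rest of the same autosomes and in the last 5 Mb, with a point for the median and bars for the quartiles of each region. The 3 regions lie on top of each other in each library, and the day 5 libraries stand highest at 21.2% and 20.3% for the proximal windows.

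Within each library, the proximal median minus the median of the rest was formed for each autosome and the middle of the 19 autosomes was taken. This difference was -0.317 points at day 0, 0.0499, -0.101, -0.165 and -0.0938 points in Nons cells at days 4 to 7, and 0.0722, 0, -0.213 and -0.279 points in knockdown cells. It was below 0 in 6 libraries, above 0 in 2 and at 0 in 1. The mean was -0.116 points (SD 0.140, n = 9 libraries), and an exact permutation test that flips the sign of each library (two-sided) gave p = 0.0469, where the smallest p this design allows is 0.00391. The call did not survive when the first 250 kb of assembled sequence of each autosome was left out, which gave -0.0707 points with an exact permutation p of 0.211, when the windows were taken up to 6 Mb or 10 Mb, or when any of the libraries day 0, Nons day 5, 6 or 7 or knockdown day 6 or 7 was left out, where the mean ran from -0.119 to -0.0913 points. Against the last 5 Mb of the same autosomes the mean was -0.0590 points (SD 0.287, n = 9 libraries), with 6 libraries below 0, 3 above and an exact sign-flip permutation p of 0.551.

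The windows differed more from the other regions in what they are made of. Their median GC content was 41.9%, against 42.5% in the rest and 45.0% in the last 5 Mb, and repeats marked by soft-masking in the assembly took a median of 27.4% of their bases, against 24.6% and 23.4%. Genes covered some part of 51.1% of them, against 54.3% and 59.3%. Windows over the length limit, which span sequence with few read positions, made up 1.51% of those that ended by 8 Mb (445 of 29410), against 0.825% in the rest and 0.528% in the last 5 Mb. Chromosome 14 stood apart, since 187 of its windows there were over the limit and its 322 members covered 1.31 Mb, against a median of 4.802 Mb on the other autosomes.

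Part of the gap to the rest of the autosome lay at the very edge of the assembly. The 1315 windows that began within 250 kb of the first assembled base of their autosome were less accessible than the other proximal windows in all 9 libraries. The difference was -0.907 points at day 0, -0.438, -1.03, -1.28 and -0.413 points in Nons cells and -0.242, -0.438, -0.657 and -0.547 points in knockdown cells. The mean difference was -0.660 points (SD 0.339, n = 9 libraries). In the next 250 kb the mean distance from the autosomal median was -0.0466 points, with 4 libraries above 0 and 5 below. Further in, between 4 and 4.75 Mb from the first base, 3 steps had means of -0.291, -0.326 and -0.430 points, each with 8 libraries below 0, so the edge was the lowest but not the only low step. This step was picked after the values had been seen, so it is a description with no test.

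**Figure D2:**
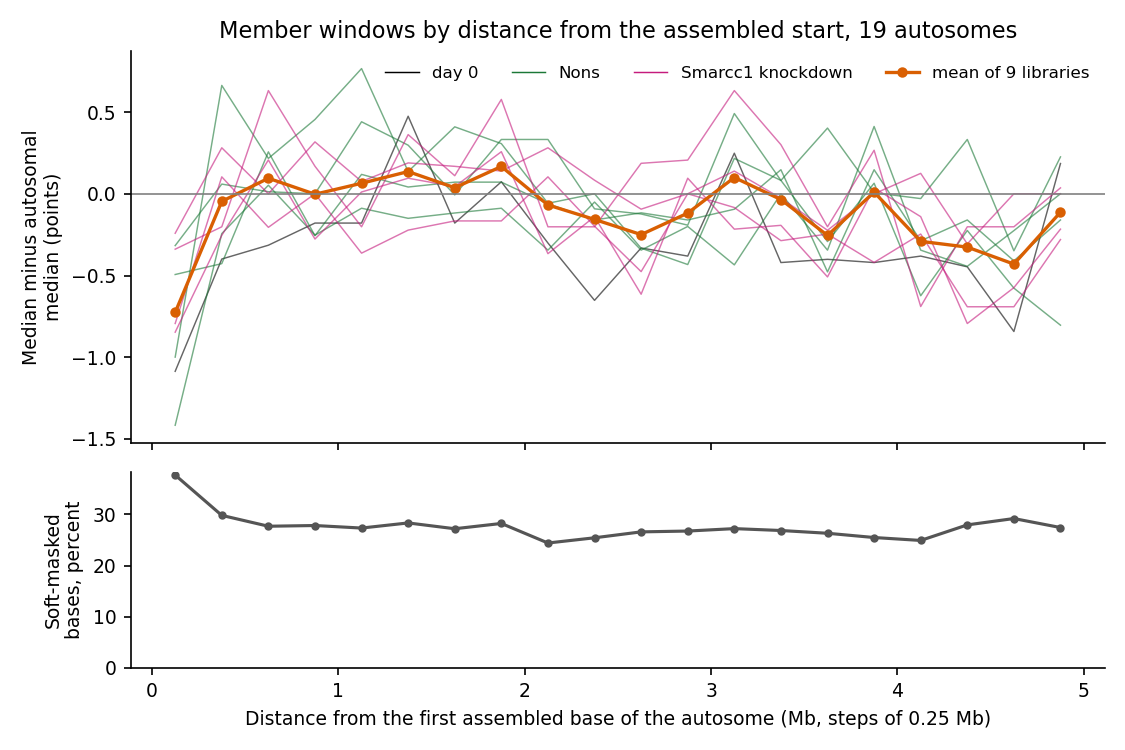
Distance from the first assembled base of the autosome in Mb on the horizontal axis and, on the vertical axis, the median of the windows in each step minus the autosomal median of the library in percentage points, with thin lines for the 9 libraries and a thick line for their mean. The lower panel gives the median percent of soft-masked bases in the same steps. The first step lies below 0 in all 9 libraries, with a mean of -0.726 points, and the later steps have means from -0.430 to 0.167 points, the lowest of them between 4.5 and 4.75 Mb.

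The edge was low on 15 of 19 autosomes and most on chromosomes 9 (-2.39 points against the other proximal windows of the same autosome), 3 (-2.25) and 19 (-2.23). It was higher than the other proximal windows on chromosomes 7 (1.22 points), 17 (0.714), 16 (0.281) and 14, the last on 5 windows. Windows below the autosomal median of the library in all 9 libraries were 33 of 1315 (2.51%) at the edge and 147 of the other 27522 (0.534%), where 0.521% of all autosomal windows met that rule. Soft-masked repeats took a median of 37.7% of the bases at the edge and 27.1% elsewhere, while GC content was alike at 42.2% and 41.9%. The part of base composition and of repeats in the low level was not tested.

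The low windows of the edge included runs of short tandem repeats. A search of the members for sequence that recurs every 15 to 99 bases with at least 50% identity found 110 windows, and units of 21 and 31 bases were the most common, with 39 and 19 windows. All 39 windows of the 21-base repeat lay in the first 250 kb of an autosome, 14 on chromosome 17, 11 on chromosome 3, 10 on chromosome 4 and 4 on chromosome 16, and all 39 were below the library medians on average. Their median was -4.63 points, with a range from -7.87 to -1.92 points, and 9 of them were low in all 9 libraries. Of the 31-base windows 13 formed a single run on chromosome 9 from position 3039126 to 3078168, and all 13 were low on average, with a median of -4.62 points.

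The level in these 52 windows was low in each library. In undifferentiated cells the median was 6.51%, in Nons cells it was 7.24%, 13.7%, 4.69% and 2.60% at days 4 to 7, and in knockdown cells it was 6.32%, 13.1%, 7.67% and 3.604%. Each lay between 3.54 and 7.47 points below the autosomal median of its library. The median GC content was 49.4% for the 21-base and 49.6% for the 31-base proximal windows, and the window of the printed 21-base array held 39.98 GpC dinucleotides per kb, against a median of 41.4 over all members. In the rest of the autosomes 17 of 26 windows that recurred every 21 bases were low on average, with a median of -0.948 points. Of those that recurred every 31 bases 5 of 10 were, with a median of 0.105 points. In the last 5 Mb 1 of 3 windows with the 21-base period was low on average (median 0.303 points), and all 5 with the 31-base period were (median -1.76 points). The search scored the period alone, so whether these windows hold the same repeats as the edge was not tested. These repeats were looked for after the lowest window had been seen to hold one, so the values carry no test, and how reads of near-identical copies were placed cannot be known from the percentages.

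The 52 windows were 3.95% of the edge and held 12 of its 33 windows that were low in all 9 libraries. Without them the edge was still below the other proximal windows in 8 of 9 libraries, with a mean difference of -0.475 points (SD 0.319), and it was at 0 in knockdown day 4. Leaving all windows of both units out of the comparison with the rest of the autosome gave -0.107 points in place of -0.116, with an exact permutation p of 0.0664.

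The repeat of 234 bases at the start of chromosome 9 stood on the other side of the median. A unit of 234 bases is that of mouse major satellite DNA, the main component of pericentromeric heterochromatin, and 3 windows of the array were members, at chr9:3000014-3007844, chr9:3016450-3023816 and chr9:3032237-3039060. They lie in the predicted non-coding gene Gm26870 and among predicted coding models such as Gm11168. Their mean was 16.4% at day 0, 20.3%, 25.1%, 11.98% and 7.03% in Nons cells and 17.8%, 24.6%, 15.4% and 8.96% in knockdown cells. All 3 windows were above the autosomal median in all 9 libraries, by 3.92, 4.44 and 3.05 points on average, and the mean excess ran from 0.623 points at Nons day 7 to 6.74 points at knockdown day 4.

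A period of 100 to 400 bases with at least 60% identity was found in 16 members. The other 13 held none that was high in all 9 libraries, where only 1.48% of all members were, so this count is near that share. Of these 13, 12 were low on average, where the median over all members was 0.283 points. Across the whole series 15 windows recurred every 234 bases, of which the 5 at the start of chromosome 9 were high in all 9 libraries and none of the other 10 was. The lowest GC content among those 10 was 40.7%, and the highest among the 5 was 36.6%. The search scored the period alone, so whether the 10 hold the same repeat as the array was not tested. The 3 member windows spanned only 0.191 to 3.12 points within a library, where the interquartile range of all members was 5.19 to 11.9 points. Their bases were 92.0% to 96.4% soft-masked and 34.9% to 36.6% GC. On chromosome 9 the accessible array and the closed 31-base array were neighbours, since the first ended at 3039060 and the second began at 3039126. Reads from the many unassembled copies of such a satellite can be placed on the few assembled ones, so the level may belong to copies elsewhere, and this was not tested.

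**Figure D3:**
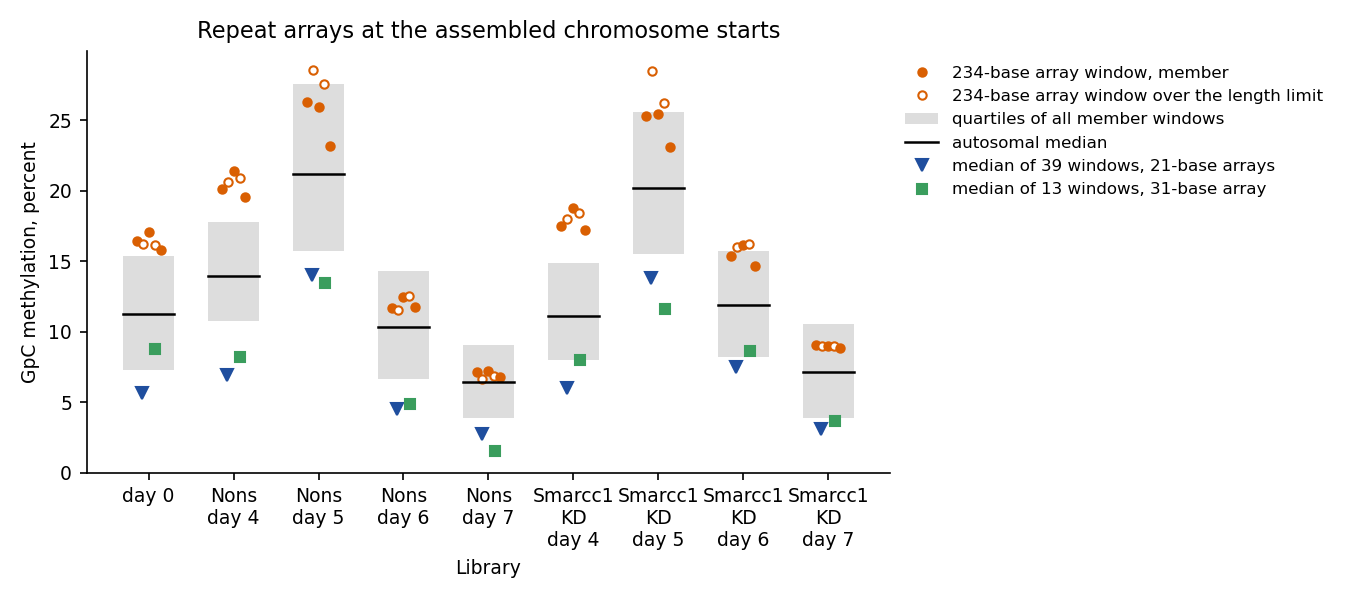
GpC methylation in percent on the vertical axis for each of the 9 libraries on the horizontal axis in windows of the tandem repeats at the assembled chromosome starts, with the quartiles of all member windows in grey and the autosomal median as a line. Windows of the 234-base array lie above the autosomal median in all 9 libraries, and the medians of the 39 windows of the 21-base arrays and the 13 windows of the 31-base array lie below it in all 9.

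The autosomes differed from each other in how their centromeric end compared with the rest of them. This split was added after values had been seen, each autosome was tested over the 9 libraries with an exact sign-flip permutation test, and p-values were adjusted by Benjamini-Hochberg over 19 autosomes. Each of the 9 autosomes called below had an adjusted permutation p of 0.0165, and 2 of them were higher and 7 lower at the centromeric end. The SD of the difference over autosomes was 0.350 points, and other segments of 5 Mb within an autosome had a median SD of 0.329 points, so the centromeric end varied between autosomes about as much as any segment did within one.

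Chromosome 6 had the centromeric end that lay furthest above the rest of its own chromosome. The difference was 0.529 points at day 0, 0.583, 0.905, 0.199 and 0.182 points in Nons cells and 0.748, 0.755, 0.847 and 0.104 points in knockdown cells, all above 0, with a mean of 0.539 points (SD 0.307, n = 9 libraries). It was the highest of 30 segments of chromosome 6. The end of chromosome 19 was also higher, by 0.407 points in 8 of 9 libraries, but it had a GC content of 48.9% against 42.5% in the rest, and weighting for GC content and length turned the difference to -0.219 points.

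Chromosome 16 had the centromeric end that lay furthest below the rest of its own chromosome. The difference was -0.659 points at day 0, -0.544, -1.57, -1.003 and -0.566 points in Nons cells and -0.819, -0.794, -0.937 and -0.585 points in knockdown cells, with a mean of -0.831 points (SD 0.322, n = 9 libraries), the lowest of 19 segments of that chromosome. Chromosome 18 (-0.565 points) and chromosome 10 (-0.264 points) were also lower in all 9 libraries. Chromosomes 4, 3, 2 and 17 differed by a mean of -0.627, -0.475, -0.257 and -0.163 points, each below 0 in 8 libraries. Counted from the lowest segment, the end ranked 1 of 18 on chromosome 18, 5 of 26 on 10, 3 of 31 on 4 and 3 of 32 on 3. It ranked 11 of 36 on chromosome 2, 8 of 19 on 17 and, where it was higher, 10 of 12 on 19. A permutation call thus did not by itself set an end apart from the other segments of its chromosome.

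**Figure D4:**
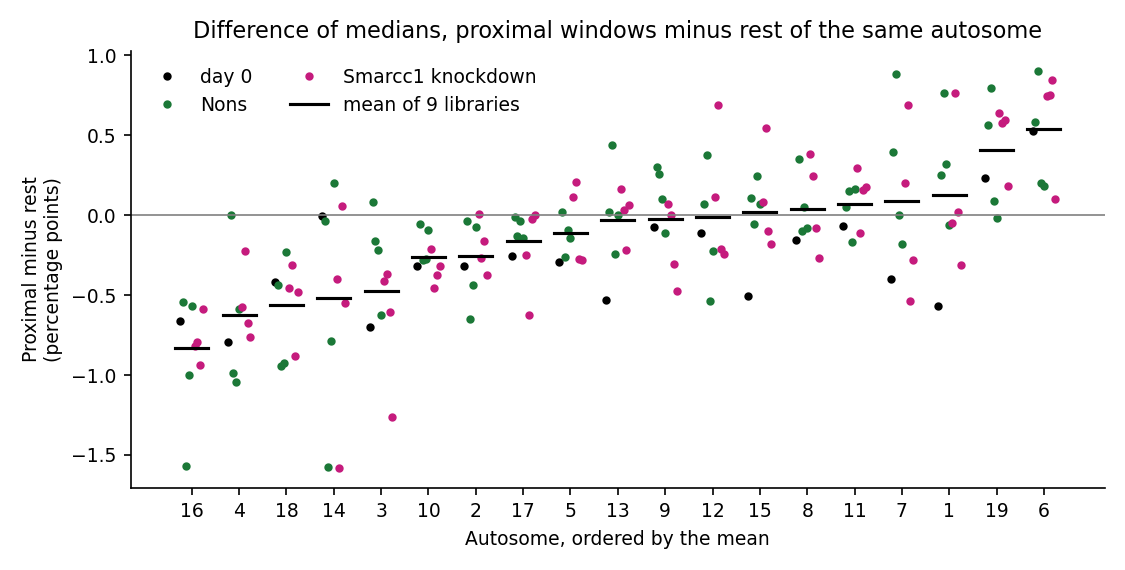
Proximal median minus the median of the rest of the same autosome in percentage points, with the autosomes along one axis, a point for each of the 9 libraries and a mark for their mean. Chromosome 6 lies above 0 and chromosomes 10, 16 and 18 below 0 in all 9 libraries.

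Steps of 250 kb showed where along these ends the difference lay. Of 340 proximal blocks with at least 40 windows, 23 (6.76%) were above the median block in all 9 libraries, where 8.81% of all 9446 autosomal blocks were, and 37 (10.9%) were below it in all 9, where 7.14% of all were. The highest proximal block lay at chr6:4500001-4750000. It holds Col1a2, a fibrillar collagen gene, Casd1, and the imprinted pair Sgce and Peg10, and was 2.27 points above the median block. The 3 blocks that follow it hold Ppp1r9a, Pon1, Pon3, Pon2, Asb4 and Pdk4 and were also high in all 9 libraries, at 1.73, 1.30 and 1.53 points. Of 19 proximal blocks on chromosome 6, 4 were high in all libraries and none low, and of 19 on chromosome 19, 5 were high and 1 low. The stretch is an imprinted cluster, in which several genes are expressed from 1 parental copy in some tissue.

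The lowest block was the first of chromosome 3, at -2.62 points, the 9th lowest of 9446 blocks, and it holds the 21-base arrays of that chromosome. The next lowest were on chromosome 7, at chr7:5750001-6000000 with -2.28 points over Vmn1r63 and Vmn1r64 and at chr7:5500001-5750000 with -2.15 points over Vmn1r60, Vmn1r61 and Vmn1r62, genes for vomeronasal receptors that detect pheromones in sensory neurons. The first block of chromosome 9 followed at -2.02 points. On chromosome 16, 6 of 18 blocks were low in all libraries and none high. Another high block, chr11:5500001-5750000 (1.96 points), holds Xbp1, a transcription factor gene of the unfolded protein response. Correlations of the block values between libraries ran from 0.350 to 0.544 over 340 blocks and 36 pairs of libraries, and those of single windows from 0.0873 to 0.205, given as a description since blocks share base composition and neighbours.

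Windows with a gene start were more accessible than the other proximal windows in all 9 libraries. The 995 windows that held the start of a coding or long non-coding gene exceeded the other proximal windows by 3.64 points at day 0, by 4.71, 7.74, 3.33 and 2.92 points in Nons cells and by 3.64, 5.11, 3.47 and 2.71 points in knockdown cells. The excess was larger than that of start-site windows in the rest of the autosomes in all 9 libraries, with means of 4.14 and 3.47 points and a difference of 0.669 points (SD 0.271, n = 9 libraries, exact sign-flip permutation p = 0.00391, the smallest the design allows). This comparison was not among the planned tests. It was not repeated under other settings or with single autosomes left out. In the last 5 Mb the excess was 2.89 points at day 0 and 4.20, 7.38, 3.33 and 2.20 points in Nons cells. Knockdown cells had 3.26, 5.28, 3.57 and 2.16 points there. These values exceeded the proximal ones at Nons day 6 (3.335 against 3.333) and knockdown days 5 and 6, and lay below them in the other libraries. The excess was not tested against the last 5 Mb. Start-site windows were high in all 9 libraries in 152 cases (15.3%), against 0.991% of the other proximal windows and 12.7% of the start-site windows of the rest. The 743 windows with a protein-coding start had a median of 6.20 points above the library median, and the 252 with a long non-coding start only had 1.21 points. Of all proximal windows 2.58% held a protein-coding start, against 2.32% in the rest. Windows with any such start, long non-coding ones included, made up 3.45% and 3.32%. By autosome, starts lay in 9.27% of proximal windows on chromosome 7, 9.25% on 19 and 9.01% on 14, and in at most 4.55% on the others. The part of these shares in the difference from the rest of the autosomes was not tested.

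Over all members 428 windows (1.48%) were above the autosomal median in all 9 libraries, where 1.31% of all autosomal windows were, and 180 (0.624%) were below it in all 9, where 0.521% of all were. A start site lay in 35.5% of the high windows and in 1 of the 180 low ones. High windows were richer in GC (46.7%, against 43.9% in low ones) and poorer in soft-masked repeats (20.9%, against 30.1%).

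The most accessible window held the start of Nmt2, a gene for an N-myristoyltransferase that attaches a fatty acid to new proteins, at chr2:3283198-3285021. It read 64.7% at day 0, 52.3%, 62.1%, 28.6% and 44.3% in Nons cells and 29.3%, 52.5%, 37.8% and 50% in knockdown cells, 34.2 points above the library medians on average. The start of Ube2s, a ubiquitin-conjugating enzyme of the anaphase-promoting complex pathway, at chr7:4811730-4813756, was 29.4 points above, and that of Mark2, a kinase of cell polarity, at chr19:7341367-7343895, was 26.2 points above. All were above the median in all 9 libraries.

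The other windows among the top 5 held no start site. The Peg3 intron at chr7:6728101-6729525 read 54.5% at day 0, 30.6%, 36.5%, 62.3% and 31.7% in Nons cells and 34.7%, 47.6%, 40.3% and 25.6% in knockdown cells, which put it 27.8 points above the medians. Around it accessibility formed a peak along the gene. From the coding end of Peg3 to the neighbouring gene Usp29 the windows lay at -0.804, 2.43, 4.76, 14.5, 27.8, 14.7, 4.48 and 5.72 points, with the shared start site of Peg3 and Usp29 in the window at 14.7 points. On the mean over libraries the summit thus lay in the intronic window beside the start and not on the start itself. At Nons day 4 the start window read higher than the intron, at 56.5%. The window at 2.43 points did so at Nons day 5 (38.6%), and that at 14.5 points at knockdown day 7 (37.8%). In the other libraries the intron was the highest of these windows.

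Peg3, which encodes a zinc-finger protein and is expressed from the paternal copy, is known for repeated binding sites of the factor YY1 in this intron. The motif GCCATNTT, or AANATGGC on the other strand, whose letters lie in the YY1 site, occurred 6 times in the window and 2 of these are in the printed 300 bases. In central stretches of the same 1425 bases 27.8% of 28772 members held it at least once and 8 members (0.0278%) held it 6 times or more. Of these 8, 4 were high in all 9 libraries, against 1.48% of all members. They were the Peg3 intron and the 3 windows of the 234-base array, which held 17, 15 and 14 copies. Those 3 windows belong to the same array, and both the intron and the array had been picked for their high level. The count therefore carries no weight for the motif. The motif was chosen after the values were seen, and a match of letters does not show that a factor binds.

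A summit also lay at Peg10, a paternally expressed gene derived from a retrotransposon. The window after the shared start of Peg10 and Sgce, at chr6:4747740-4749430 in the first part of the gene, had no value at day 0 and read 34.3%, 63.7%, 45.8% and 24.2% in Nons cells and 42.3%, 55.4%, 38.5% and 33.3% in knockdown cells. It was above the median in 8 of 8 libraries and by 29.4 points on average, while the start-site window itself was 9.12 points above and the window after it 9.41 points above. This window was singled out after its values had been seen, and the missing day 0 value keeps it out of the counts.

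On chromosome 3 a pair of neighbouring windows with no annotated gene, chr3:5856228-5860462 and chr3:5860463-5865876, was open in each library. The first of the pair read 32.8% at day 0, 48.8%, 47.8%, 39.1% and 31.5% in Nons cells and 35.4%, 52.6%, 33.8% and 20% in knockdown cells. The second read 36.6%, then 47.6%, 54.8%, 35.3% and 21.6%, and 43.1%, 54.9%, 37.6% and 23.0%. They were 25.4 and 26.8 points above the medians, and the flanking windows were at -0.138 and 0.0568 points. Their GC content was 35.1% and 38.6%, against a median of 46.7% over the high windows of all proximal sequence.

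The least accessible windows were of several kinds. The 21-base array at chr3:3002179-3005880, which overlaps the predicted miRNA Gm28002, read 7.41% at day 0, 6.56%, 2.50%, 0% and 0% in Nons cells and 0%, 17.3%, 5.88% and 3.03% in knockdown cells, a mean of -7.87 points against the medians. An intergenic window at chr9:6804446-6810067 was 96.3% soft-masked and lay at -7.24 points. A window over coding and untranslated exons of Slx4, a scaffold of DNA repair nucleases, at chr16:3984058-3985858, lay at -7.24 points, one over the pseudogene Gm8706 on chromosome 5 at -7.20 points, and one over a coding exon of the oestrogen receptor gene Esr1 on chromosome 10 at -7.05 points, the last in 8 of 9 libraries.

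Gene groups showed which starts were open. Start sites of 1228 genes lay within 8 Mb, and 1101 of them lay in the windows used. The list of ribosomal, translation and mitochondrial genes had 15 start windows with a median of 11.4 points above the library medians and a range from 3.32 to 34.2 points, and 8 were high in all 9 libraries (53.3%), against 19.4% of all windows with a protein-coding start. Both ends of the range belong to genes that the name of the list does not describe, Thoc5 of messenger RNA export at 3.32 points and Nmt2 at 34.2 points, and the list also holds Sf3a1, a splicing factor (7.64 points), and Tcea1, a transcription elongation factor (10.9 points). After Nmt2 the highest was Rpl37, a protein of the large ribosomal subunit, at 16.3 points. It read 29.2% at day 0, 22.9%, 42.5%, 22.7% and 20.2% in Nons cells and 30%, 50%, 32.3% and 10.5% in knockdown cells. Tfb1m, which methylates the RNA of the mitochondrial ribosome, was at 13.3 points, Naa40, an N-terminal acetyltransferase, at 12.5 points, and Rps20 at 11.8 points. For comparison the median over all 995 start windows was 4.44 points and over all members 0.283 points.

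Chromatin and DNA methylation regulators had 13 start windows with a median of 11.0 points and a range from 4.68 to 21.3 points. Of these 2 were high in all 9 libraries (15.4%), against 19.4% of windows with a protein-coding start and 15.3% of all start windows. They were Sf1, a splicing factor of the branch point, at 21.3 points and Arid1b, a subunit of the BAF complex, at 11.4 points. Sf1 shares its window with Gm14966. Arid1b read 32% at day 0, 19.4%, 47.4%, 12.96% and 10% in Nons cells and 15.7%, 34.6%, 27.7% and 16.3% in knockdown cells. Epc1, a subunit of the NuA4 acetyltransferase complex, was at 18.6 points in 8 of 9 libraries. Dnmt3a, the de novo DNA methyltransferase, was the lowest of the list at 4.68 points. Chd7 begins past 8 Mb and had no member window.

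Developmental transcription factors had 18 start windows with a median of 9.19 points, from 0.310 to 25.6 points. High in all 9 libraries were 7 of them (38.9%), against 19.4% of windows with a protein-coding start. Crem, a cyclic AMP response factor, led at 25.6 points, with 34.5% at day 0, 31.6%, 56.0%, 50.9% and 21.9% in Nons cells and 32.1%, 46.9%, 42% and 27.9% in knockdown cells. Plag1, a zinc-finger factor of growth control, was at 18.4 points and Tfap4 at 17.1 points. Klf6 (11.4 points) and Sox17 (10.8 points), the latter a factor of endoderm, were high in all 9 libraries as well. Fosl1, an AP-1 factor, was the lowest at 0.310 points. The start windows of Zeb1 and Tox lacked a value in at least 1 library and were not used.

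The 25 start windows of ligands, receptors and their binding proteins had a median of 5.47 points, against 6.20 points over protein-coding starts, and ran from -0.263 to 14.7 points. Of these 3 were high in all 9 libraries (12%), against 19.4% of windows with a protein-coding start and 15.3% of all start windows. They were Insr, the insulin receptor, at 12.97 points, Pdgfd, a platelet-derived growth factor, at 10.6 points and Ptger4, a prostaglandin receptor, at 5.79 points. The highest mean was that of the Wnt receptor Fzd1, at 14.7 points in 7 libraries. The opioid receptor genes Oprk1 (-0.263 points) and Oprm1 (0.288 points) were at the median. Lif, the cytokine that keeps mESCs undifferentiated, was at 3.16 points and its receptor Lifr at 4.10 points.

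Of the 12 start windows of 14 imprinted genes 5 were high in all 9 libraries (41.7%), against 19.4% of windows with a protein-coding start. The 12 windows had a median of 6.72 points and a range from 2.00 to 14.7 points. The window that Peg3 and Usp29 share read 18.2% at day 0, 56.5%, 29.5%, 11.5% and 10% in Nons cells and 32.1%, 43.8%, 27.1% and 17.4% in knockdown cells. Ppp1r9a was at 14.3 points, Pon2 at 10.7 points, the window of Peg10 and Sgce at 9.12 points and Zim3 at 6.88 points. Calcr, the calcitonin receptor gene next to the Peg10 cluster, was the lowest at 2.00 points. The nuclear long non-coding RNA genes Malat1 and Neat1 were at 11.1 and 9.20 points.

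Gene families that lie in clusters on these ends went both ways, and were looked at after values had been seen. The 18 start windows of vomeronasal receptor genes, 15 of them on chromosome 7, had a median of -1.98 points and a range from -3.38 to 3.56 points. None was high in all 9 libraries. In the rest of the autosomes 245 such windows had a median of -0.242 points and 0.408% were high in all 9, so the counts were alike. Olfactory receptor genes, which are likewise silent outside sensory neurons, had 10 windows with a median of -0.214 points and none high in all 9. In the rest 1015 such windows had a median of 0.126 points and 0.591% were high. Distances were from the median of all autosomes and not from that of chromosome 7. Zinc-finger genes named Zfp, Zscan or Zik, 17 of 23 on the same chromosome 7, had a median of 10.8 points and 8 were high in all 9 libraries (34.8%). In the rest of the autosomes 330 windows of such genes had a median of 8.24 points and 23.6% were high in all 9. Open zinc-finger starts and low vomeronasal receptor starts thus lay within the same 8 Mb.

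**Figure D5:**
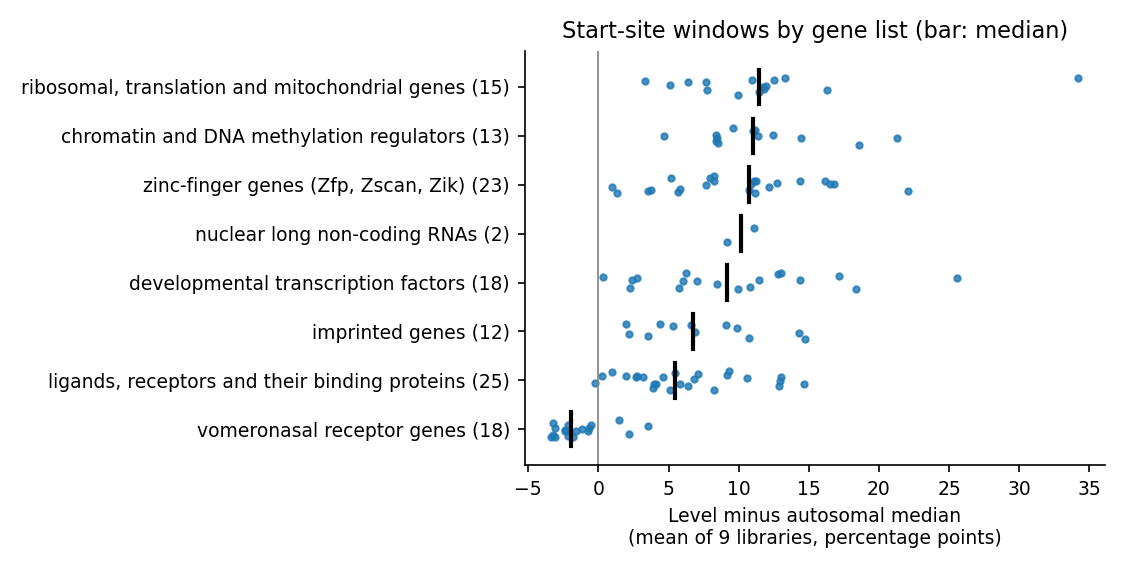
Level of the start-site windows of each gene list minus the median of the library, as the mean over 9 libraries in percentage points, 1 point for each window and a bar for the median of the list. Ribosomal, translation and mitochondrial genes (median 11.4 points) and chromatin regulators (11.0 points) lie highest among the fixed lists, and vomeronasal receptor genes (-1.98 points) lie lowest.

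Over differentiation the proximal windows changed in the same direction as the rest of the autosomes in 7 of 8 libraries, the exception being knockdown day 4, where both were near 0. From day 0 the median change in Nons cells was 2.97, 10, -0.787 and -4.52 points over days 4 to 7, where the rest changed by 2.66, 9.68, -0.888 and -4.69 points. In knockdown cells it was 0.180, 9.09, 0.714 and -3.94 points, where the rest changed by -0.128, 8.66, 0.603 and -3.99 points. The proximal change was above that of the rest at each of these 8 comparisons, by 0.0451 to 0.425 points, but all 8 share the day 0 library, in which the proximal windows were lowest against the rest, so they are not separate observations.

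Cells with the Smarcc1 hairpin were compared with Nons cells at each day. The median paired difference in the proximal windows was -2.81, -0.882, 1.53 and 0.575 points over days 4 to 7. All 19 autosomes were lower in the knockdown at days 4 and 5, all 19 were higher at day 6 and 17 of 19 at day 7. The remainder of the autosomes gave -2.79, -1.08, 1.49 and 0.655 points and the last 5 Mb -2.79, -1.24, 1.62 and 0.817 points. The mean over days was -0.396 points (SD 1.89, n = 4 days, exact sign-flip permutation p = 0.75, smallest possible 0.13). The proximal difference less that of the rest was -0.0180, 0.194, 0.0426 and -0.0801 points at days 4 to 7, with a mean of 0.0346 points (SD 0.117, n = 4 days, exact sign-flip permutation p = 0.75). The 3 regions had the same sign on each day.

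Single windows were tested with limma with day as a block across all 829493 windows with complete values. No window of the members or of the table reached 0.05 after adjustment, so the percentage called was 0, and the smallest adjusted p was 0.995. Without adjustment, 1295 of 28837 members (4.49%) had a limma p under 0.05, 461 higher and 834 lower in the knockdown, where 4.23% of all windows did. The knockdown was higher on all 4 days in 1439 members (4.99%), where 4.95% of all windows were, and lower on all 4 days in 1942 (6.73%), where 6.81% of all were. Centring each library on its autosomal median gave 638 higher and 761 lower. The members' shares were near those of the table in each case.

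The windows with the largest mean differences of 1 sign on all 4 days included promoters. The shared start of Cnot3, a subunit of the CCR4-NOT deadenylase, and Gm15927 at chr7:3643826-3645666 read 44.2%, 65.5%, 54.5% and 18.6% in Nons cells and 18.2%, 42.9%, 19.8% and 4.55% in knockdown cells, with 20.3% at day 0. The start of Dynlt1b, a dynein light chain, at chr17:6429193-6432399 read 35.3%, 40.5%, 20.9% and 21.1% in Nons cells and 4.49%, 12.7%, 0% and 3.23% in knockdown cells. Both had a mean difference of -24.4 points, and an intron of Wdr70 on chromosome 15 had -22.0 points. In the other direction the start of Epc1 at chr18:6515345-6517861 read 31.4%, 35.6%, 8.82% and 11.8% in Nons cells and 39.8%, 49.3%, 40.8% and 32.7% in knockdown cells, a mean of 18.7 points. An intergenic window of chromosome 15 at chr15:3119492-3122422 and an intron of Speer9-ps1 on chromosome 7 both differed by 17.4 points. The adjusted p of each of these windows in limma was 0.995, so none passed, and Dynlt1b has near-identical copies among which reads can be split.

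In the fixed lists no start window passed limma's adjusted p. Before adjustment 103 of all 995 start windows and 86 of the 743 protein-coding ones had a limma p under 0.05. The share was 4.49% over all members and 4.23% over all windows. No count is given for start windows in the rest of the autosomes, so whether proximal starts differ from other starts was not tested. The counts under 0.05 were 3 of 13 windows among chromatin regulators, 4 of 25 among ligands and receptors, 1 of 12 among imprinted genes, 1 of 15 among ribosomal, translation and mitochondrial genes, and none among developmental transcription factors or the nuclear long non-coding RNAs. Besides Epc1 the start of Crebbp, a histone acetyltransferase, had a mean difference of 16.6 points with the same sign on all 4 days. It read 17.8%, 14.7%, 17.5% and 5.75% in Nons cells and 22.4%, 36.1%, 40% and 23.5% in knockdown cells, and 11.1% at day 0. Among ligands Penk, the opioid precursor gene, had -11.3 points and Igfbp3, an insulin-like growth factor binding protein, -10.4 points, while Vegfb had 10.8 points, each with the same sign on all 4 days. Each of these windows had an adjusted p of 0.995 in limma.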

How the data were processed

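NOMe-seq was done by the authors in 9 libraries of differentiating female mESCs, 1 for each group. Reads were trimmed with trim_galore, aligned with bismark to an mm10 genome masked at strain variants, and filtered for informative GpC positions with coverage2cytosine. The submitters' processing notes also name bcl2fastq. The deposited values are percent GpC methylation in windows of 200 read positions with both alleles joined, as the authors made them in Seqmonk. The paper describes averages over another number of positions and an enrichment normalisation, but library medians differed widely, so the values were treated as not normalised. Steps such as enzyme activity, fixation and conversion can shift a whole library. No read counts were used here, so depth is unknown.

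Windows over 8000 bp or without a value in all 9 libraries were left out. Start sites and exons came from GENCODE M21 and bases from GRCm38 (RefSeq). A window was called high or low where it was above or below the autosomal median of the library in all 9 libraries. Regions were compared over 9 libraries or 4 days by exact permutation (two-sided, flipping signs), and the knockdown by limma (version 3.58.1) in R on percent values, blocked by day, Benjamini-Hochberg adjusted at 0.05 over all windows. The libraries are conditions of 1 cell line, so these p-values measure the spread between conditions and not between cultures. Groups came from sample titles, and the day pairs the arms as a time point and not as a shared culture.

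Named items were the genes of 6 fixed lists whose start lay in a member window, the 5 highest and 5 lowest windows by mean distance from the library medians (the lowest among windows above 0 in at least 5 libraries), the 3 largest mean rises and the 3 largest falls among windows with 1 sign on all 4 days, and the highest and lowest autosomes. The members, lists and tests were chosen with earlier results of these data known. Single autosomes, blocks of 250 kb, the first 250 kb, tandem repeats, the motif, the Peg10 intron and the receptor and zinc-finger families were added after values were seen. The test of the start-site excess against the rest of the autosomes was not planned either. Tests and repeat searches were tested on simulated data.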

Additional observations from a re-analysis of the deposited data

Results flagged for a closer look

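The difference between knockdown and Nons cells in the proximal windows changed its direction over the days. Days 4 and 5 gave -2.81 and -0.882 points, below 0 in all 19 autosomes on both, and days 6 and 7 gave 1.53 and 0.575 points, above 0 in 19 and 17 autosomes. With 1 library for each arm and day the difference between days was not tested, and the remainder of the autosomes had the same signs, at -2.79, -1.08, 1.49 and 0.655 points.

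The proximal difference less that of the rest also changed sign, at -0.0180 points at day 4, 0.194 points at day 5, 0.0426 points at day 6 and -0.0801 points at day 7. These differences between days were not tested, and the SD over autosomes was 0.224 to 0.423 points.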

How the results depend on the processing

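Proximal less the rest (-0.116 points) stayed below 0 in all 16 alternatives but lost its call in 9, and the cause was not tested. The value was -0.110 with every window (exact permutation p = 0.0547), -0.0834 without windows at 0 or 100%, -0.0834 up to 6 Mb, -0.0882 up to 10 Mb, -0.0978 without start sites and -0.0990 with windows pooled. In alternatives added after seeing the data it was -0.0707 without the first 250 kb, -0.107 without 21- and 31-base repeats and -0.135 without both day 5 libraries (exact permutation p = 0.0781, smallest possible 0.0156). Leaving out 1 library or autosome gave -0.140 to -0.0913, and 14 of 28 such values lost the call (day 0, Nons days 5, 6 and 7, knockdown days 6 and 7, and chromosomes 2, 3, 4, 10, 14, 16, 17 and 18). Against the last 5 Mb (-0.0590) the sign turned without windows at 0 or 100% (0.00818), up to 6 Mb (0.0266), up to 10 Mb (0.000115) and without the first 250 kb (0.0205), and leaving out 1 library or autosome gave -0.115 to -0.00680. Knockdown less Nons (-0.396) turned to 0.0218 with quantile normalisation and ran from -1.04 to 0.409 without 1 day or autosome, with 0.409 without day 4. The same less the rest (0.0346) was -0.0106 with means and ran from -0.0185, without day 5, to 0.0728. No other alternative changed a call or a direction. Members at an unadjusted limma p under 0.05 numbered 1295 to 1494. The day was the block in limma and paired the arms, and no further paired analysis was possible because each arm and day has 1 library. Depth per window is unknown, so small differences cannot be set against counting error.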

Other observations

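The X chromosome, left out by the choice of autosomes, had 963 windows that ended by 8 Mb under the same limits. Their median less that of the remainder of the X was -0.362 points at day 0, 0.111, -0.451, -0.505 and -0.0744 points in Nons cells at days 4 to 7, and -0.206, 0.170, -0.319 and 0 points in knockdown cells. The mean was -0.182 points (SD 0.246, n = 9 libraries, 6 below 0, exact sign-flip permutation p = 0.0703).

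Autosomal windows that ended by 8 Mb but were longer than 8000 bp, and so were not members, numbered 427 with a value in all 9 libraries. Their median was 10% at day 0, 13.6%, 21.1%, 9.52% and 6.12% in Nons cells and 10.8%, 19.3%, 10.3% and 6.12% in knockdown cells. Each was below the median of the members in the same library. Their share of values at exactly 0% ran from 0.234% at Nons day 4 to 14.5% at knockdown day 7. The 2 longer windows of the 234-base array, of 8519 and 8305 bp, were 4.62 and 4.47 points above the library medians and above them in all 9 libraries.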
